A study of Mus musculus with 6 samples.

Results

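The fatty acid desaturases and elongases Scd1, Scd2, Fads1, Fads2, Elovl1, Elovl2, Elovl3, Elovl5 and Elovl6 were examined in liver of Nrg4 knockout (KO) and wild-type (WT) mice. Nrg4 encodes neuregulin 4, which brown fat releases and which binds receptors of the ErbB family. The genes were chosen by name, and each was represented by its probe sets annotated to that gene symbol alone. Of the 9 genes, 8 had such a probe set, 16 probe sets in all, out of 17097 genes and 45141 probe sets on the array. Scd2 was not analysed here. All 8 genes passed the filter on dim signal, which left 12466 genes tested.

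The knockout group was Nrg4 knockout mice and the comparison group wild-type mice, both of strain C57BL/6. Both groups were put on a high-fat diet at 3 months of age, ate it for 8 weeks and were random-fed when liver was taken. Each genotype was measured on 3 Affymetrix arrays, each hybridised with a separate pool of liver RNA. The labels name neither the number and sex of the mice in a pool nor how the Nrg4 allele was made, and all p-values refer to variation between pools. Pools of whole liver do not distinguish fewer cells of a type from less RNA per cell.

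Fatty acid synthase releases mainly palmitate, and the enzymes described here turn it and the fatty acids of the diet into the other long-chain species of the cell. Elongases add a pair of carbons at a time in the endoplasmic reticulum, and desaturases insert double bonds with electrons passed on by cytochrome b5. Elovl6 lengthens palmitate to stearate, and Scd1 turns both into monounsaturated palmitoleate and oleate, which are stored in liver triglyceride. Fads2, Elovl5, Fads1 and Elovl2 act in turn on the essential fatty acids of the diet to give arachidonate and docosahexaenoate. Several of these genes are known targets of the transcription factors SREBP-1c and LXR in mouse liver.

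Nrg4 signal matched the genotype labels of all 6 arrays. The Nrg4 probe set read 2.56, 2.43 and 2.64 in the KO arrays and 4.94, 4.79 and 4.77 in the WT arrays on the log2 scale (limma adjusted p = 4.76e-05); the sources do not say whether the deletion covers this probe set. The hepatocyte marker Alb lay between 12.32 and 12.41 in KO and between 12.30 and 12.34 in WT. The adipocyte marker Adipoq had a dim mean, with 2.21 to 2.37 in KO and 2.38 to 3.19 in WT. Array medians spanned 2.98 to 3.04. The 3 control probe sets for 18S ribosomal RNA separated the genotypes. The 5' set read 5.61 to 6.71 in KO and 8.12 to 8.80 in WT, the middle set 5.74 to 6.59 in KO and 7.92 to 8.14 in WT, and the 3' set 6.67 to 6.89 in KO and 7.45 to 7.73 in WT. They lie outside the gene comparison, and their part in the results below was not tested. For the Actb and Gapdh controls, the 5' signal minus the 3' signal averaged -1.31 in KO replicate 1, -0.70 and -0.65 in the other KO arrays, and -0.96 to -0.78 in WT.

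None of the 8 genes passed limma's test of KO against WT at an adjusted p of 0.05, where 0.0401% of all genes tested passed (5 of 12466). Scd1 stood 1.25-fold and Elovl5 1.17-fold higher in KO, and these were the 2 genes with an unadjusted limma p under 0.05, a level reached by 9.55% of all genes. They were also the 2 genes in which the KO and WT arrays did not overlap, as was the case for 15.6% of all genes in either direction, for 11.7% with KO higher and for 3.92% with KO lower. In all, 6 of the 8 genes had the higher mean in KO, against 63.4% of all genes. The log2 changes of the 8 genes lay between -0.09 and 0.32, with a median of 0.12, beside a median of 0.045 over all genes tested. Adjusted p-values (limma) ranged from 0.35 to 0.90. The number of genes without overlap was 4 of 8 when WT replicate 3 was left out, beside 25.7% of all genes at 3 arrays against 2. It was 1 of 8 when each gene was represented by the mean of its probe sets, beside 15.6% of all genes.

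**Figure D1:**
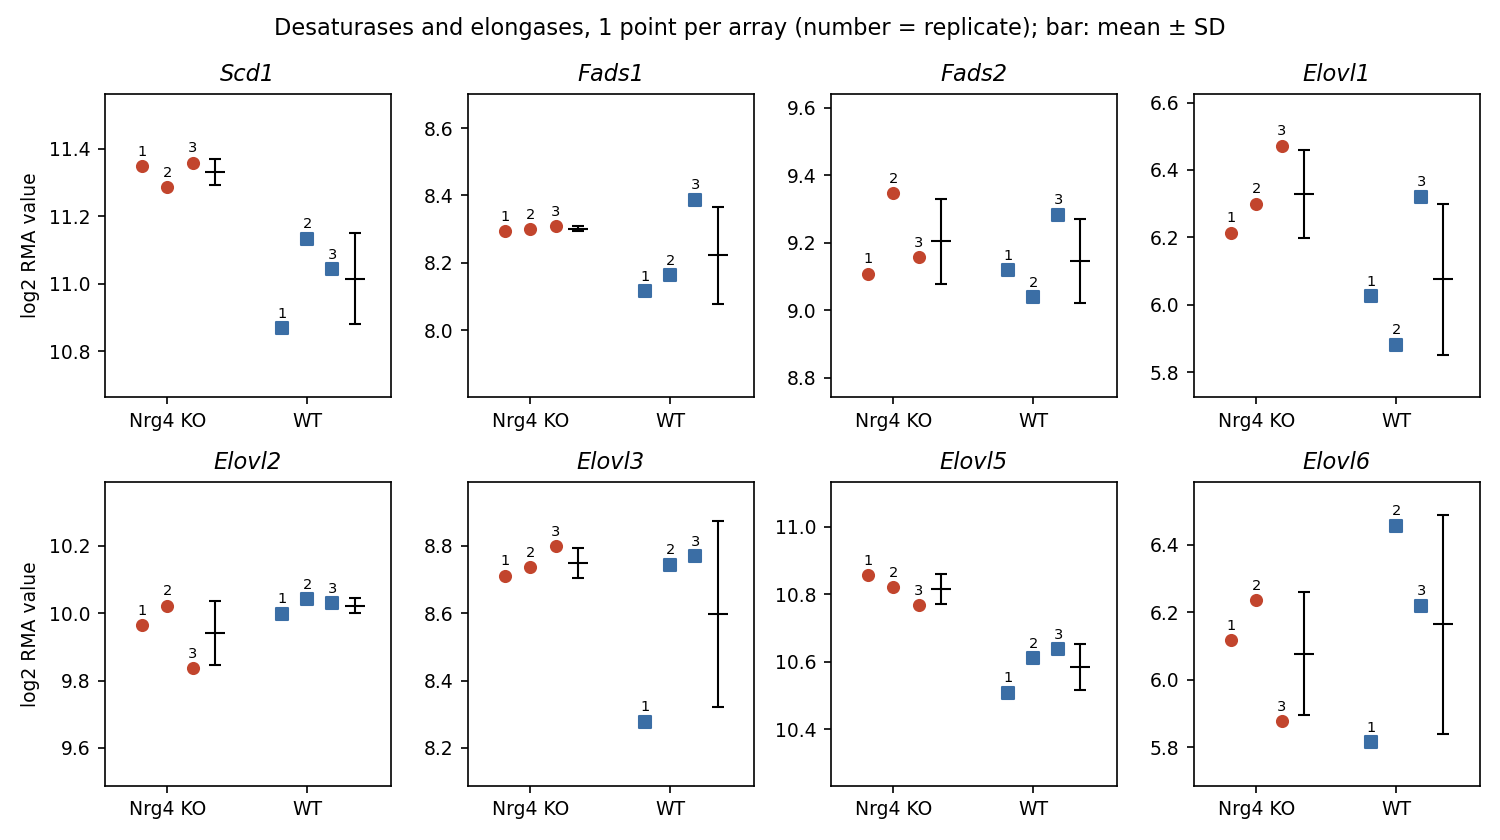
Log2 RMA value of the main probe set of each gene in every array, with Nrg4 KO (circles) left of WT (squares), the replicate number above each point, and the mean ± SD beside each group (n = 3). Each panel spans the same height on the log2 scale; the KO and WT points stand apart in Scd1 and Elovl5 and overlap in the other 6 genes.

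Scd1, the main stearoyl-CoA desaturase of liver, was read by a bright probe set at 11.35, 11.29 and 11.36 in the KO arrays and 10.87, 11.13 and 11.04 in the WT arrays on the log2 scale. Every KO array lay above every WT array. The difference came to 0.32 on the log2 scale (SE 0.10, 95% confidence interval 0.10 to 0.53, n = 3 arrays of each genotype, limma adjusted p = 0.35). The interval spans 1.07-fold to 1.45-fold. The KO arrays were close together, with an SD of 0.040 against 0.13 in WT, where replicate 1 was the lowest. Without WT replicate 1 the log2 change was 0.24, and over all refits it lay between 0.22 and 0.38 with adjusted p-values of 0.15 to 0.80. The highest value of any probe set was 12.53, so the Scd1 signal lay near the top of the scale, where array signals can be compressed.

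A second Scd1 probe set was far dimmer and did not separate the genotypes. It read 3.71, 4.89 and 4.73 in KO and 4.05, 4.50 and 4.42 in WT. KO replicate 1, the array with the lowest 5' minus 3' control signal, gave the lowest of the 6 values there, while on the bright probe set it was among the highest. The log2 change of the dim probe set was 0.12 (95% confidence interval -0.51 to 0.75), which includes that of the bright one. Scd2, Scd3 and Scd4 lie beside Scd1 on chromosome 19 in the RefSeq annotation and are close in sequence to it. None of them had a probe set annotated to its symbol alone. Probe sets with several symbols or with none were not used for single genes. Whether the Scd1 probes also bind RNA of Scd2, Scd3 or Scd4 was not tested.

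Fads2, the desaturase that starts the conversion of linoleate and alpha-linolenate, read 9.11, 9.35 and 9.16 in KO and 9.12, 9.04 and 9.28 in WT on its brightest probe set. The genotypes overlapped throughout, with a log2 change of 0.06 (SE 0.10, 95% confidence interval -0.18 to 0.30, n = 3 per genotype, limma adjusted p = 0.89). The change was -0.01 without KO replicate 2, 0.003 without WT replicate 2 and 0.13 without WT replicate 3, and with KO replicate 1 left out it was 0.11. Its other probe sets gave log2 changes of 0.10 and -0.14, both with intervals that include 0. The probe set at -0.14 is of a class whose probes can bind other transcripts.

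Fads1, the desaturase of the last step to arachidonate, read 8.29, 8.30 and 8.31 in KO and 8.12, 8.16 and 8.39 in WT. The KO arrays lay within 0.014 of each other, inside a WT range of 0.27, and WT replicate 3 was the highest of the 6. Fads1 had a log2 change of 0.08 (95% confidence interval -0.14 to 0.30, n = 3 per genotype, limma adjusted p = 0.83). It was 0.03 without WT replicate 1, 0.05 without WT replicate 2 and 0.16 without WT replicate 3. A dimmer Fads1 probe set stood at -0.11 (95% confidence interval -0.39 to 0.17). The intervals of the brightest probe sets reach 1.23-fold higher for both Fads1 and Fads2, so larger increases lie outside them, and they do not show that the genotypes are alike. Fads1, Fads2 and Fads3 are direct neighbours on chromosome 19. Fads3, whose liver function is less well defined, had a log2 change of 0.11 (limma adjusted p = 0.84).

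Elovl5, which lengthens the product of Fads2, was the elongase with the clearest separation. Its main probe set read 10.86, 10.82 and 10.77 in KO and 10.51, 10.61 and 10.64 in WT. Every KO array was above every WT array, and the log2 change was 0.23 (SE 0.08, 95% confidence interval 0.04 to 0.42, n = 3 per genotype, limma adjusted p = 0.45). Another probe set of nearly equal brightness read 10.88, 10.88 and 10.80 in KO and 10.39, 10.57 and 10.60 in WT, again without overlap, and had a log2 change of 0.33 (SE 0.09, limma adjusted p = 0.32 in the fit over every probe set). Elovl5 was the single member among those with several probe sets in which all of them separated the genotypes. The main probe set is of the class whose probes can bind other transcripts, and the second is not. Elovl5 lies on chromosome 9, as does Nrg4. A shared chromosome alone does not show close linkage, and distances from Nrg4 were not examined here. Whether sequence linked to the Nrg4 allele had a part in the Elovl5 values was not tested. Nor was it tested for Me1, Sc5d, Cyb5r4 and Acaa1b, named below, which also lie on chromosome 9. Over all refits the log2 change of Elovl5 lay between 0.19 and 0.28 with adjusted p-values of 0.19 to 0.84.

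Elovl2, which extends the longer polyunsaturated species toward docosahexaenoate, showed little spread. It read 9.96, 10.02 and 9.84 in KO and 9.998, 10.04 and 10.03 in WT. KO replicate 3 was the lowest, and the other KO arrays lay close to or within the WT values. Elovl2 had a log2 change of -0.08 (SE 0.09, 95% confidence interval -0.28 to 0.12, n = 3 per genotype, limma adjusted p = 0.80). It was -0.03 without KO replicate 3 and -0.12 without KO replicate 2. A single probe set measured it.

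Elovl6, the elongase of palmitate, was also not separated by genotype. Its main probe set read 6.12, 6.23 and 5.88 in KO and 5.82, 6.46 and 6.22 in WT, so WT replicates 1 and 2 were the lowest and the highest of all. The log2 change was -0.09 (SE 0.17, 95% confidence interval -0.47 to 0.29, limma adjusted p = 0.90). A second probe set, at 5.04, 5.45 and 4.88 in KO and 4.98, 5.67 and 5.32 in WT, ranked the arrays within each genotype in the same order. The remaining one was close to the dim limit of 2.66, with means of 2.85 in KO and 2.70 in WT. Without WT replicate 2 the log2 change of the main probe set was 0.06, without KO replicate 3 it was 0.01, without KO replicate 2 it was -0.17, without WT replicate 1 it was -0.26 and without WT replicate 3 it was -0.06. Its direction therefore rested on single arrays.

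Promoter windows of 250 bases before the gene start were read for the members found in the RefSeq promoter table, which held 7 windows of 5 members (GRCm38.p6). Those of Elovl5, in which both probe sets separated the genotypes, and of Fads2 and Elovl6, in which they overlapped, are shown 5' to 3' for comparison, with motif matches in capitals. They lie at chr9:77917115-77917364 on the plus strand, chr19:10101504-10101753 on the minus strand and chr3:129532136-129532385 on the plus strand.
Elovl5: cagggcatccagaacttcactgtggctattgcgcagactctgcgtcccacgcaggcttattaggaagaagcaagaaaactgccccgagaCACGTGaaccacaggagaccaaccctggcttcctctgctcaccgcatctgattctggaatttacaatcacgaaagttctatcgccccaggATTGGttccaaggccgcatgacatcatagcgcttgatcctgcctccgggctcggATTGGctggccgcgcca
Fads2: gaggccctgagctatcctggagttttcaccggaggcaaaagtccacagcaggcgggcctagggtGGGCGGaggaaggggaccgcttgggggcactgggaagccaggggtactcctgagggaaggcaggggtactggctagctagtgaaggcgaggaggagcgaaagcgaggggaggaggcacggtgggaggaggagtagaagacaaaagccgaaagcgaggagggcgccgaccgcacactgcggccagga
Elovl6: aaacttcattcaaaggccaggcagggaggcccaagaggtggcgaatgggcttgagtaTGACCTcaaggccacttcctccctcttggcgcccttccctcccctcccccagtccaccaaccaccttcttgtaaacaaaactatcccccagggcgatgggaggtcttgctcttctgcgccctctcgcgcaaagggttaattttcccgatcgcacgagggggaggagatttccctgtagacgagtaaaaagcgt
Both strands were searched for CACNCCAC, the core of a sterol regulatory element. The other motifs searched were the CCAAT box, the E-box spelled CACGTG, the GC box spelled GGGCGG and the nuclear receptor half-site spelled AGGTCA. The Elovl5 window held 2 CCAAT matches, written ATTGG on the strand shown, that began 71 and 17 bases before the start, and 1 CACGTG at 161 bases. The Fads2 window held 1 GGGCGG at 186 bases and the Elovl6 window 1 AGGTCA, written TGACCT, at 193 bases. Of the 7 windows of members, CCAAT was in 2, CACGTG in 1, GGGCGG in 4, AGGTCA in 2 and CACNCCAC in 0. The other window with CCAAT was of Elovl1, in which the genotypes overlapped. Among all 32851 promoter windows of this length, 33.8% held CCAAT, 6.02% CACGTG, 32.7% GGGCGG, 14.0% AGGTCA and 5.29% CACNCCAC. These matches describe the sequence and were not tied to the expression values.

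Elovl1 and Elovl3 act on saturated and monounsaturated very long chains. Elovl1 read 6.21, 6.30 and 6.47 in KO and 6.03, 5.88 and 6.32 in WT on its main probe set, with WT replicate 3 inside the KO range. The log2 change was 0.25 (SE 0.13, 95% confidence interval -0.04 to 0.55, n = 3 per genotype, limma adjusted p = 0.57). It was 0.16 without WT replicate 2 and 0.37 without WT replicate 3. The main probe set, like that of Elovl5, is of the class whose probes can bind other transcripts. The other Elovl1 probe set, not of that class, had a log2 change of 0.08 (SE 0.21) and was lowest in KO replicate 1, at 5.17.

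Elovl3, which in mouse liver is known for higher levels in males and for a daily rhythm, read 8.71, 8.74 and 8.80 in KO and 8.28, 8.74 and 8.77 in WT. WT replicate 1 stood apart, and the other WT arrays lay among the KO arrays. The log2 change was 0.15 (SE 0.13, 95% confidence interval -0.16 to 0.46, n = 3 per genotype, limma adjusted p = 0.76). Without WT replicate 1 it was -0.01, so the difference rested on that array, and it was 0.24 without WT replicate 3 and 0.23 without WT replicate 2. The labels do not state the hour at which liver was taken.

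**Figure D2:**
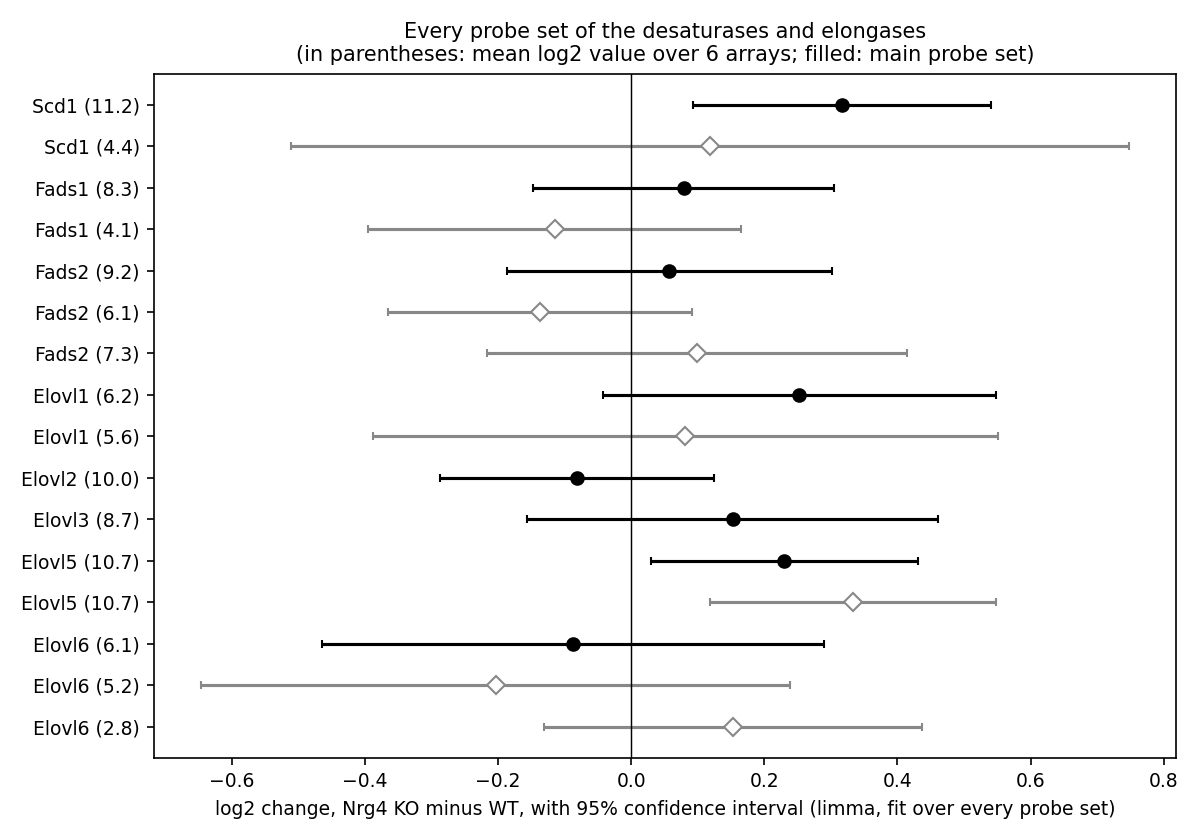
Log2 change, Nrg4 KO minus WT, of all 16 probe sets of the 8 genes with 95% confidence intervals from the limma fit over every probe set; filled circles mark the main probe set of a gene, open diamonds the others, and the number in parentheses is the mean log2 value over the 6 arrays. The intervals of 3 probe sets, 1 of Scd1 and both of Elovl5, lie above 0, and the other 13 include it.

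Over the 16 probe sets, 11 had the higher mean in KO, and log2 changes ran from -0.20 to 0.33. None passed limma's test over the 27022 probe sets tested, where 0.0481% passed. An unadjusted limma p under 0.05 was found in 3 of the 16, beside 9.5% of all probe sets, and the same 3 had no overlap between KO and WT, beside 15.2% of all probe sets without overlap.

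The 6 arrays differed in ways shared by several of the genes. WT replicate 1 was the lowest of the WT arrays in 6 of the 8 genes and the lowest of all 6 arrays in 5. WT replicate 3 was the highest WT array in 5. Averaged over the 8 genes after centring each on its mean, the arrays stood at 0.04, 0.10 and 0.04 in KO and at -0.19, -0.03 and 0.05 in WT. The SD over the pools was smaller in KO than in WT for 6 of the 8 genes, with a median of 0.07 in KO and 0.14 in WT, whereas over all genes tested the median SD was 0.13 in KO and 0.11 in WT and the WT value was the larger in 41.7% of genes. The widest range over the 6 arrays was 0.64, in Elovl6, and the narrowest 0.20, in Elovl2, with a median range over all genes of 0.37. No gene spanned 1 on the log2 scale, the range set for naming genes of like pattern, so none are named. Among the 8 genes, Scd1 and Elovl5 had the most similar centred profiles, with a root mean square difference of 0.076 over the 6 arrays. Fads1 and Fads2 came close behind, at 0.083, and Elovl1 and Elovl6 were the least similar, at 0.34.

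**Figure D3:**
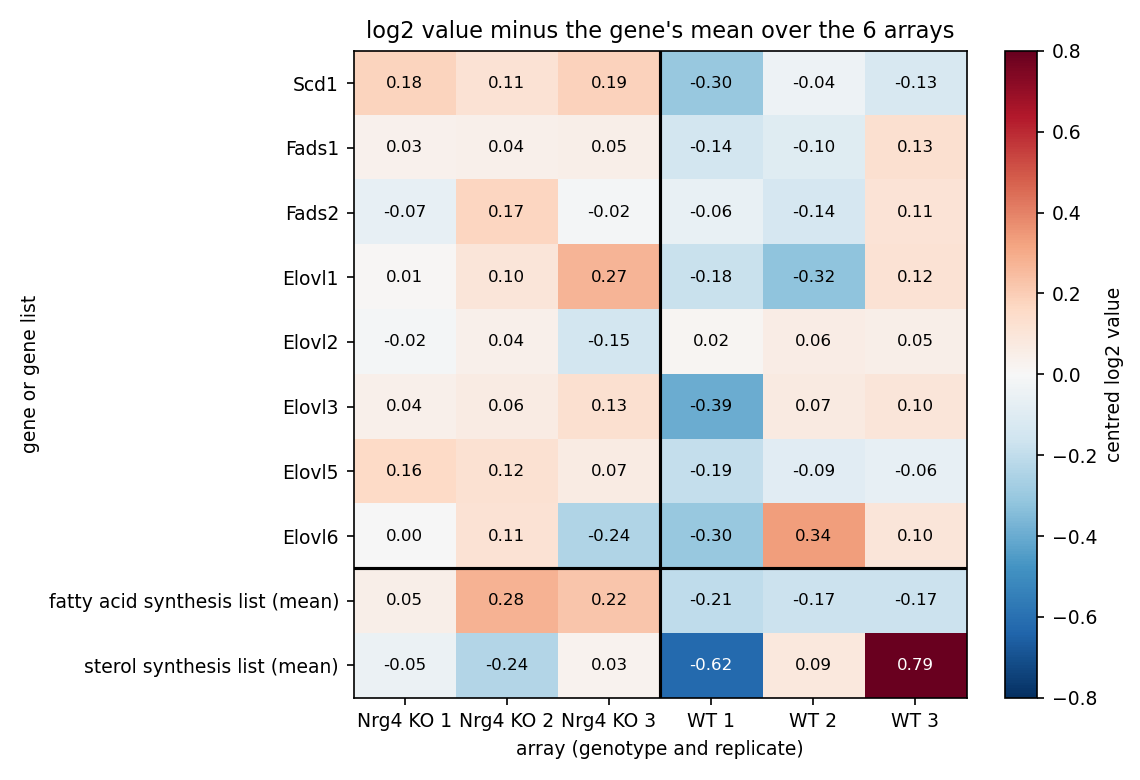
Log2 value of each gene minus its own mean over the 6 arrays (colour and printed value), with genes down the side, Nrg4 KO arrays left and WT arrays right of the line, and the mean centred values of the fatty acid synthesis and sterol synthesis lists in the bottom rows. WT replicate 1 is the lowest array in Scd1, Fads1, Elovl3, Elovl5 and Elovl6, and the sterol list spans -0.62 to 0.79 within WT.

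The sterol synthesis genes, driven by SREBP-2, varied between the same WT arrays. Their list mean was -0.62, 0.09 and 0.79 in WT replicates 1, 2 and 3, and -0.05, -0.24 and 0.03 in KO. The WT order of Fads1, Elovl3 and Elovl5 was the same as that of the sterol list, and that of Scd1, Fads2, Elovl1, Elovl2 and Elovl6 was not; its part in the spread of these genes was not tested. Of 15 sterol genes tested, 14 had the lower mean in KO (median log2 change -0.07) and none passed over all genes. The members with the smallest p were Sc5d at -0.65, Lss at -0.46 and Tm7sf2 at -0.21 (limma adjusted p = 0.23, 0.57 and 0.77); the other Sc5d probe sets stood at -0.29 and 0.14.

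The fatty acid synthesis list had a larger median log2 change than the desaturases and elongases, a difference that was not tested. That list also holds regulators such as Thrsp, so its median is not that of the enzymes that make palmitate alone. Of the 11 fatty acid synthesis genes, all tested, 10 had the higher mean in KO, with a median log2 change of 0.34, and none passed over all genes. Thrsp, a regulator of lipogenesis, read 10.08, 10.18 and 10.13 in KO and 9.11, 9.37 and 8.76 in WT, a log2 change of 1.05 (SE 0.15, limma adjusted p = 0.063). Me1, the malic enzyme that supplies NADPH and lies on chromosome 9 with Nrg4, stood at 0.69 (limma adjusted p = 0.085). Another probe set of each gave a log2 change of 1.09 for Thrsp and 0.97 for Me1. Aacs, acetoacetyl-CoA synthetase, stood at 0.56 (limma adjusted p = 0.32). Fasn, fatty acid synthase itself, stood at 0.37 (limma adjusted p = 0.50). The list mean was 0.05, 0.28 and 0.22 in KO and -0.21, -0.17 and -0.17 in WT.

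The partners that complete an elongation cycle or feed electrons to the desaturases had a median log2 change of 0.06, with 7 of 10 higher in KO and none passed. Hacd4, a 3-hydroxyacyl-CoA dehydratase, stood at 0.32 (limma adjusted p = 0.31), Cyb5r4, a cytochrome b5 reductase, at 0.20 (0.53) and Hacd1, another dehydratase, at -0.23 (0.55). Of the acyl-CoA synthetases and acyltransferases that use long-chain fatty acids, 7 of 10 were higher in KO (median 0.11) and none passed. Lpcat2, a lysophosphatidylcholine acyltransferase of inflammatory cells, stood at 0.41, Dgat2, which makes triglyceride, at 0.19 and Acsl6 at -0.21, with limma adjusted p-values of 0.36 to 0.56. The remaining family members Fads3, Degs1, Degs2 and Elovl7 lay between -0.01 and 0.11, and Elovl4 was dim. Signal was low in Hacd4, Lpcat2, Acsl6, Fads3, Degs2, Elovl7 and, of the sterol genes, Lss. Their genotype means lay between 2.89 and 3.83, against a dim limit of 2.66. The peroxisomal steps that finish docosahexaenoate had the lower mean in KO in 7 of 8 genes (median -0.06, none passed). Ehhadh, a bifunctional enzyme, stood at -0.21 and Acaa1b, a thiolase, at -0.15 (limma adjusted p = 0.49 and 0.59). Abcd2, a peroxisomal transporter, stood at -0.24 (limma adjusted p = 0.80), and its dimmer probe sets at 0.32 and 0.28. The gene of this list with the higher mean in KO was Hsd17b4, at 0.03 (limma adjusted p = 0.95).

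The known regulators of the family were near 0 as a list. Of 16 tested, 9 were higher in KO, with a median log2 change of 0.05, and none passed; Srebf1 and Nr1h2 were not analysed here. Ppara, the fatty acid sensor of liver, stood at 0.34 (limma adjusted p = 0.38), Insig2, which holds SREBPs in the endoplasmic reticulum, at 0.26 (0.42) and Pparg, the adipogenic receptor, at 0.51 (0.48). Probe sets disagreed in sign for Ppara, whose others stood at -0.35 and -0.13, and for Insig2, whose others stood at 0.14 and -0.10.

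**Figure D4:**
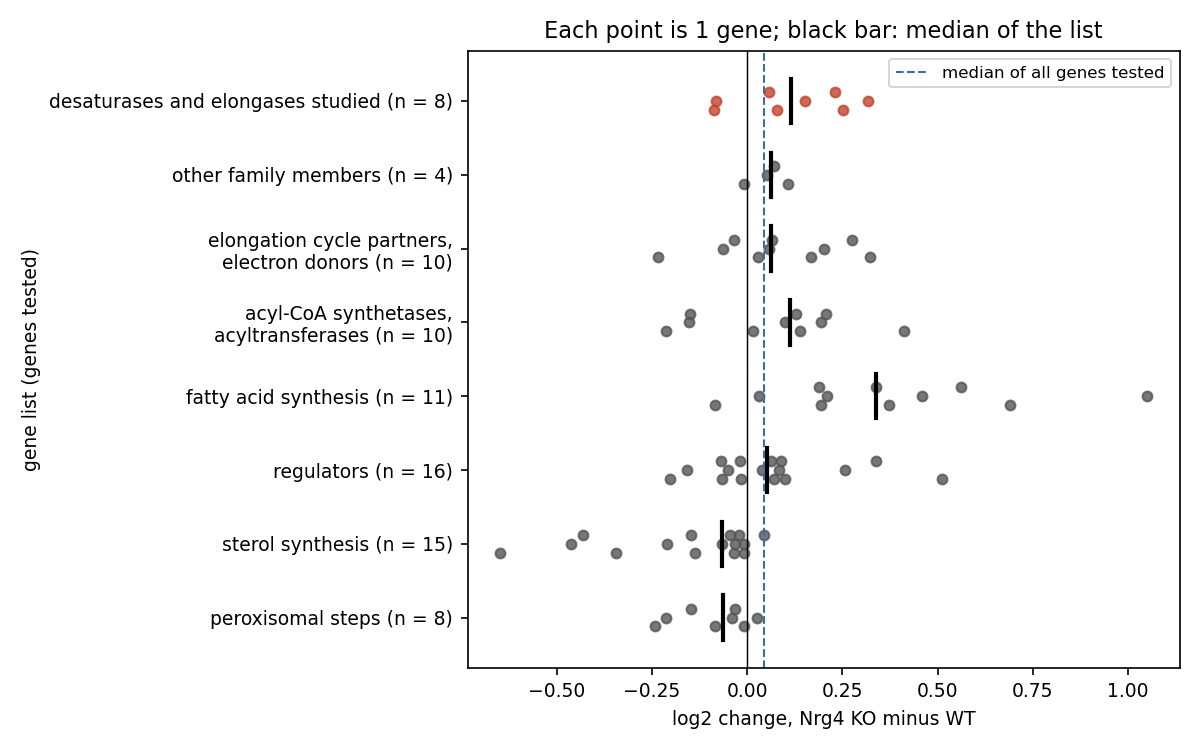
Log2 change, Nrg4 KO minus WT, of each tested gene in the desaturases and elongases (top) and in 7 related gene lists; black bars are list medians and the dashed line the median of all genes tested, 0.045. The desaturases and elongases lie between -0.09 and 0.32, and the fatty acid synthesis list reaches 1.05.

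Markers of macrophages, endothelium and stellate cells also tended to higher values in KO, where 63.4% of all genes had the higher mean. All 12 macrophage and Kupffer cell markers had the higher mean in KO (median log2 change 0.34), with list means of -0.26 to 0.47 in KO and -0.31 to -0.11 in WT, and none passed over all genes. Endothelial markers were higher in 9 of 10 (median 0.29; list means -0.03 to 0.35 in KO and -0.37 to 0.004 in WT) and stellate and matrix markers in 9 of 10 (median 0.21; 0.03 to 0.26 in KO and -0.20 to -0.05 in WT). Hepatocyte markers were higher in 4 of 9 (median -0.02; -0.10 to 0.07 in KO and -0.08 to 0.03 in WT). The 4 tested adipocyte markers split evenly between higher and lower (median 0.01; list means 0.00069 to 0.09 in KO and -0.13 to 0.07 in WT). Lymphocyte markers were higher in 4 of 6 (median 0.08), brown adipocyte markers in 2 of 4 (median 0.05) and cholangiocyte markers in 2 of 2 (median 0.20). The part of cell composition in the values of the desaturases and elongases was not tested.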

How the data were processed

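Total liver RNA (250 ng per pool, Trizol extraction) was labelled with a 3' IVT kit, per the labels. The authors deposited log2 values for 6 arrays, made with RMA, affy and limma per the submitters' processing notes; versions and a genome build are not given there. RMA includes background correction and quantile normalization, which narrow differences shared by most genes.

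Only the 28898 probe sets annotated to a single gene symbol entered gene-level tests. The probe set of highest mean stood for its gene. A mean below the 40th percentile over probe sets, 2.66 on the log2 scale, removed a gene as dim; that limit is not a detection floor. KO and WT were compared with limma 3.58.1 (lmFit, eBayes, two-sided) in R 4.3.3, adjusted by Benjamini-Hochberg over 12466 genes. Intervals for other probe sets came from a fit over all probe sets. For 3 against 3 arrays the smallest exact permutation p is 0.1, and the number of arrays limits the precision. The fit was checked on simulated data.

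The genes named are all 8 members with data, Nrg4, and the 3 genes of smallest p in each of 7 pathway lists. Alb, Adipoq, Fasn, Hsd17b4 and the remaining family members were named outside that rule. The members and lists were chosen with earlier results of these data known. The labels do not say whether same-numbered arrays were paired, and the main fit treated them as unpaired. Their deviations from the genotype means had correlations of -0.15, 0.03 and -0.01, which cannot settle how the pools were made. Alternatives were 2 normalizations, 2 filters, variance models, array weights, probe set choice, leaving out each array, a replicate block and a looser threshold. Figures used matplotlib 3.10.9.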

Additional observations from a re-analysis of the deposited data

How the results depend on the processing

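Under every one of 17 alternatives, 0 of the 8 desaturases and elongases were called. Their median log2 change stayed above 0 in 16 refits, between 0.03 and 0.20 with each array left out in turn and between 0.08 and 0.12 otherwise. Genes without overlap between KO and WT numbered 2, with 2 to 4 when an array was left out, beside 21.0% to 35.9% of all genes, and 1 when probe sets of a gene were averaged. Without KO replicate 2, and also without WT replicate 1, the 3 genes without overlap included Elovl2, lower in KO. Of 128 refits of single genes, 123 kept the direction and stayed outside the threshold, and 5 turned sign. Those were Fads1 with the mean of its probe sets (-0.018), and, with an array left out, Fads2 (-0.014 to 0.13), Elovl3 (-0.0069 to 0.24) and Elovl6 (-0.26 to 0.060). The cause was not tested.

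The number called over all genes, 5, was 8 with quantile normalization again, 3 with the 60th percentile filter (9304 genes tested), 29 with limma-trend, 50 with array weights, 3 with the mean of all probe sets, 13 with every probe set on its own, 30 at adjusted p under 0.10, and 1 to 17 with an array left out, the highest without KO replicate 1. With the replicate number as a block it was 2, and no member was called. In the labels, same-numbered arrays share only that number. With 3 arrays per genotype, SEs of the 8 log2 changes were 0.08 to 0.17.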
